A study of Mus musculus with 20 samples.

Results

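RNA bound to tagged ribosomes was compared with the RNA of the whole lysate in the cortex of 5 wild-type mice. The 10 libraries were chosen by name: the wild-type columns of the count table for wt734, wt736, wt785, wtBT13 and wtBT14, each present both as IP and as IN. They are 10 of the 20 libraries of the series. All animals were 3 months old and on a C57BL/6 background, and the other animals carried a heterozygous Foxp2 deletion. Cortical hemispheres of 1 animal were freed of neighbouring structures and lysed, an aliquot of the lysate was kept as Input, and the rest went to a pull-down with anti-GFP serum (bacTRAP), here called IP. Both fractions were turned into Smart-seq2 libraries, which hold neither strand nor molecular identifiers. The cells that carry the GFP tag are not given in the sources used here, and neither is the transgene that drives it. Each sample is from 1 animal, and IP and Input of an animal share a lysate.

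In translating ribosome affinity purification a GFP-tagged ribosomal protein is made in a chosen cell type, and antibodies against GFP recover the ribosomes of those cells with the mRNA they are reading. RNA that cytosolic ribosomes do not hold, such as nuclear or mitochondrial RNA, is left behind in the lysate. In the neocortex, corticothalamic neurons of layer 6 project to the thalamus and are marked by Ntsr1, Foxp2 and Tle4, while interneurons, glia and vessels make up much of the remaining tissue. In a comparison of this kind a gene can be higher in IP because tagged cells express it or because more of its mRNA is on ribosomes, and these cannot be told apart here, nor can fewer cells of a type and less RNA per cell.

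Totals ran from 3391291 to 3934152 counts in Input and from 4061562 to 5754169 in IP, and 19050 to 19806 genes had at least 1 count. The log2 ratios of IP over Input correlated between animals across 13913 genes with Pearson r from 0.674 to 0.787, and the median SD of a gene's ratio over the 5 animals was 0.278. Genes are not independent replicates, so these values describe the libraries only. Reads were not counted by molecule, and counting intervals would understate the error. The animals' names come in 2 forms, 3 with a number only and 2 with BT and a number, and what BT stands for is not given. Values of single animals are listed below in the order wt734, wt736, wt785, wtBT13, wtBT14. Genes that mark cortical neurons, such as Slc17a7 and Tbr1, were present in every Input library.

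The fractions differed in many genes. With edgeR and animal as a block, 4017 of 13913 genes (28.9%) were higher in IP and 3804 (27.3%) lower at an adjusted p below 0.05. Tested against a change of 1.5-fold, 808 (5.81%) were higher and 1013 (7.28%) lower. Changes of 4-fold or more among these were less common upwards (34 genes) than downwards (139 genes). The 10 values of a gene did not overlap between fractions for 2479 genes with IP above (17.8%) and 2483 with IP below (17.8%). The median log2 change over all genes was 0.02. Scaling by library size alone moved that median to 0.27 and the calls to 6317 higher and 2296 lower, with 1887 higher and 561 lower beyond 1.5-fold, so directions below are relative to the bulk of the genes.

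**Figure D1:**
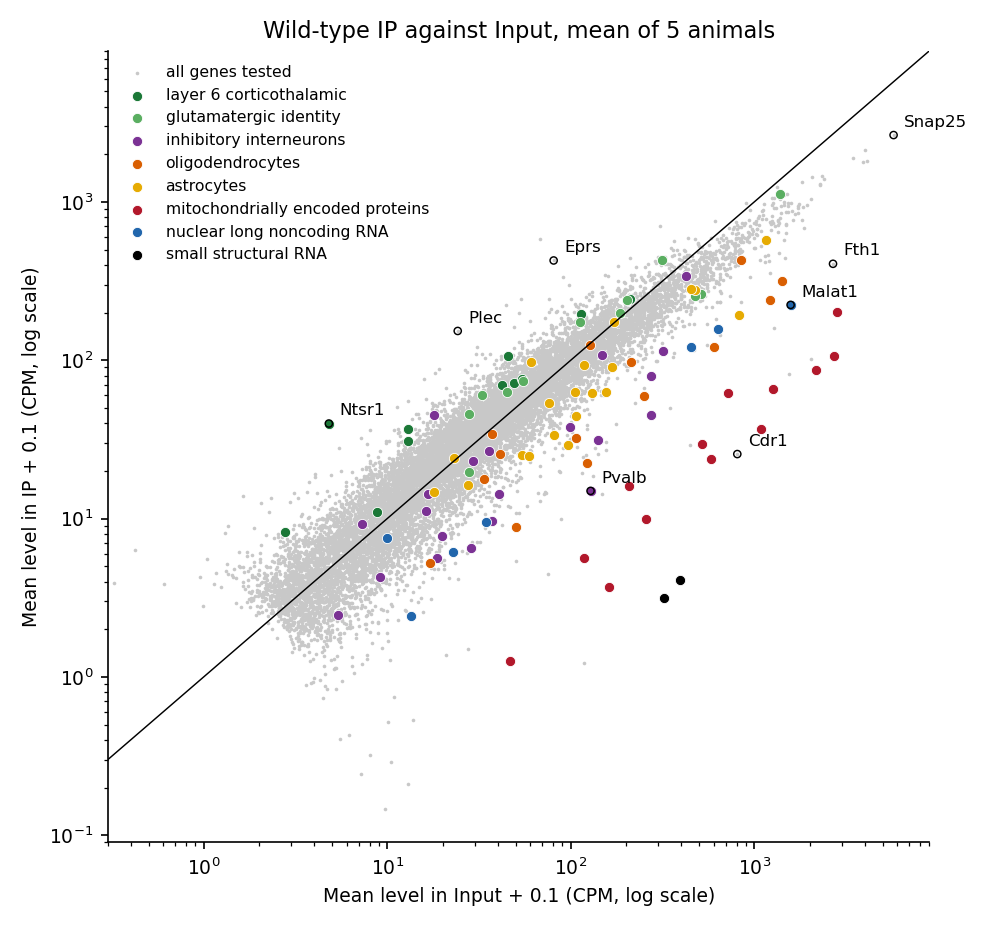
Mean level of each of 13913 genes in Input (x axis) and IP (y axis) over 5 wild-type animals, in CPM plus 0.1 on log scales, with the line of equality. Members of 8 lists are coloured: 13 mitochondrially encoded protein genes and 7SL RNA lie far below the line, and layer 6 corticothalamic genes lie on or above it.

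Ntsr1, the neurotensin receptor gene used to mark layer 6 corticothalamic neurons, had the second largest change upwards of all genes with a mean of at least 5 CPM (read counts of a gene relative to the size of its library, scaled by TMM). Ntsr1 (ENSMUSG00000027568, chromosome 2, 180499976 to 180544980 in mm10) was at 35.3, 38.5, 47.1, 38 and 39.7 CPM in IP, against 4.15, 3.58, 5.66, 5.21 and 4.92 in the Input of the same animals. Every IP library was above every Input library, and the 5 animals differed little from each other. The log2 change was 3.08 (SE 0.16, adjusted p = 1.15e-11), or 8.43-fold. Ahead of it stood Tmem255b, a transmembrane protein gene at 13.8 ± 2.71 CPM in IP and 1.54 ± 0.616 in Input (SD, n = 5, log2 3.16).

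The layer 6 corticothalamic list held 11 genes, all tested. Of these 7 were higher in IP, 0 lower and 4 not called, with a median log2 change of 0.79 against 0.02 for all genes. Among all genes 28.9% were higher and 27.3% lower. Tle4, a corepressor gene, was at 106 ± 13.8 CPM in IP and 45.6 ± 2.31 in Input (log2 1.22, SE 0.09). Sla, an adaptor protein gene, had a log2 change of 1.51, Thsd7b 1.58, Hs3st4 1.21, Crym, which encodes a thyroid hormone binding protein, 0.79, and the transcription factor gene Tbr1 0.73. The 4 not called were Foxp2 (0.54), Syt6 (0.49), Ccdc88c (0.33) and Rprm (0.18).

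Foxp2 (chromosome 6, 14901349 to 15441977), the forkhead factor gene deleted in the other animals of the series, did not pass in the wild types. In IP it was at 61.9, 106, 69.4, 46.6 and 73.8 CPM, and in Input at 39, 43.3, 41.1, 66.2 and 53.8. IP exceeded Input in 4 animals, and wtBT13 went the other way, so the fractions overlapped. The log2 change was 0.54 (SE 0.23, adjusted p = 0.0808). With the BT-named animals alone it was -0.02, and with the number-only animals alone 0.92, which passed, as did the value with library size alone (0.78). Its relatives, which encode factors of the same family, moved in opposite directions. Foxp1 was at 154 ± 16.5 CPM in IP and 351 ± 46 in Input (log2 -1.19, SE 0.09), lower in all 5 animals, and Foxp4 at 33.5 ± 4.85 and 20.3 ± 3.64 (log2 0.73, SE 0.15), higher in all 5. Foxp3 was too low to be tested.

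**Figure D2:**
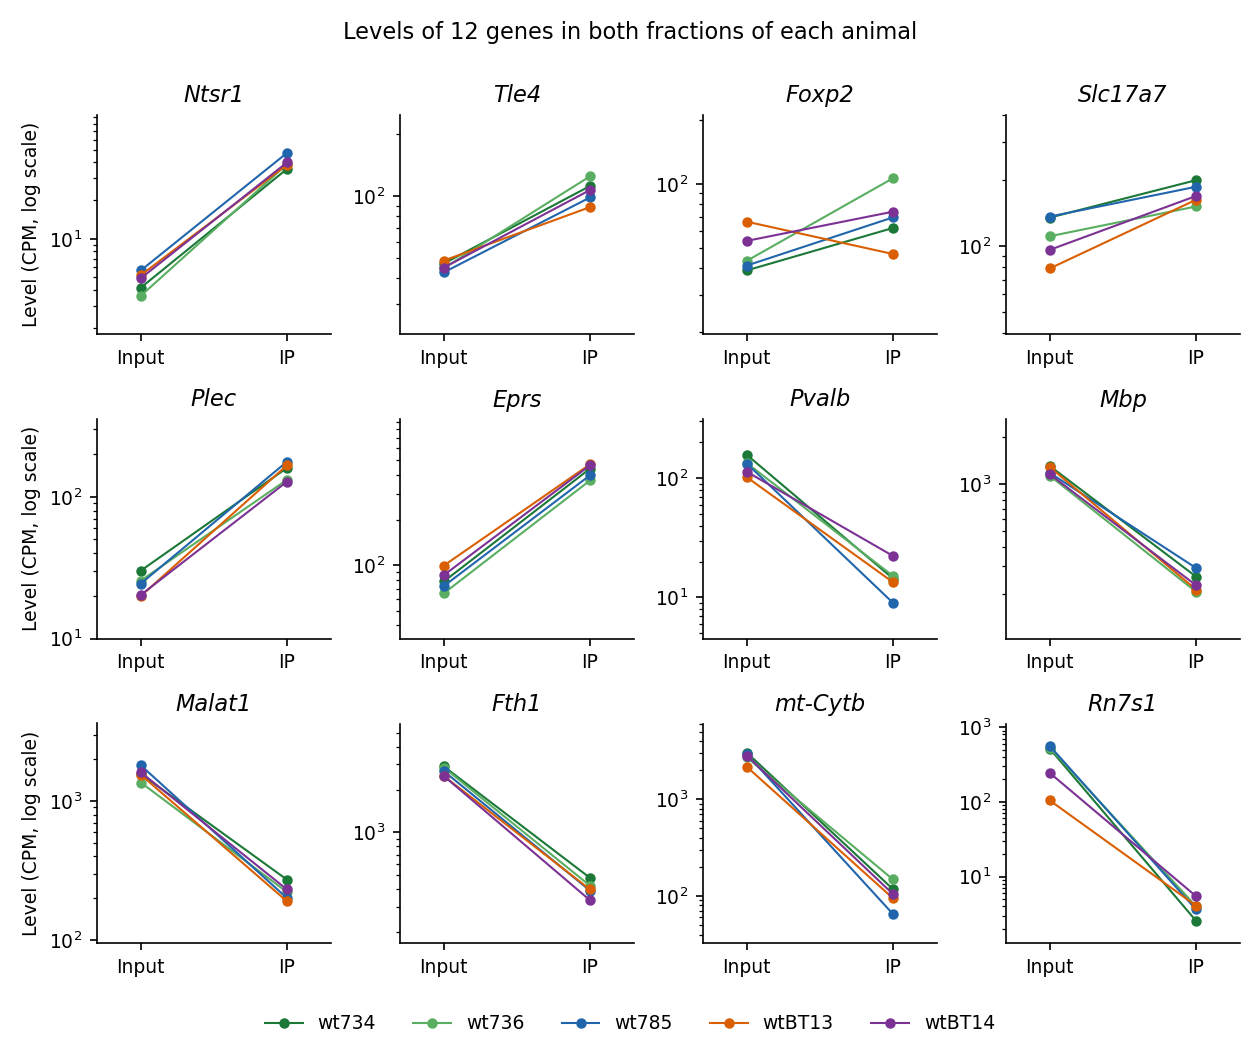
Level in CPM on a log scale (y axis, its range set for each gene) of 12 genes in Input and IP (x axis), with 1 line per wild-type animal. Ntsr1 rises in each animal from 3.58 to 5.66 CPM in Input to 35.3 to 47.1 in IP, Foxp2 is lower in IP in wtBT13 alone, and the genes from Pvalb onwards fall in each animal.

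Genes of layer 6b were mostly higher, and those of layer 5 and the upper layers mostly lower. Their counts stand beside 28.9% of all genes higher and 27.3% lower. Of 7 genes of layer 6b, the thin deepest layer, 6 were tested, with 4 higher, 1 lower and a median of 0.50. Cplx3, a complexin gene, was at 148 ± 29 CPM in IP and 70.1 ± 5.93 in Input. Nxph4, a secreted neurexin ligand gene, had a log2 change of 1.13, Nr4a2 0.47 and Ccn2 0.53. Moxd1 was the lower one (-1.54) and Tmem163 (-0.15) was not called. Of 12 layer 5 genes 2 were higher and 7 lower, with a median of -0.53. The transcription factor gene Etv1 was at 67.2 ± 7.31 against 141 ± 11 CPM (log2 -1.07), and Parm1 (-0.88), Fam84b (-1.74) and the serotonin receptor gene Htr2c (-0.82) were lower too, while Fezf2 (0.65) and Qrfpr (0.66) were higher. Of 12 genes of the upper layers 2 were higher and 8 lower, with a median of -0.45. Calb1, a calcium-binding protein gene, had a log2 change of -0.94, Cux1, a homeobox gene, -0.74 and Lamp5 -0.52. Otof (1.53) and Rasgrf2 (0.72) went against the rest. All 4 layer lists kept the sign of their medians under every scaling and with each form of name alone.

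Genes of glutamatergic neurons in general were mixed. Of 12 such genes 7 were higher and 4 lower, set against 28.9% and 27.3% of all genes, with a median of 0.35. Slc17a7, a vesicular glutamate transporter gene, was at 174 ± 19.3 CPM in IP and 111 ± 24.9 in Input (log2 0.66). Slc17a6, the gene of a second such transporter, was at 59.8 ± 9.72 CPM in IP and 32.7 ± 7.98 in Input (log2 0.87). The transcription factor gene Emx1 had a log2 change of 0.72. The lower ones were Nrn1 (-0.95) and Nrgn (-0.89), which encode small neuronal proteins, Neurod1 (-0.51) and Camk2a (-0.28).

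Interneuron genes were mostly lower, set against 28.9% of all genes higher and 27.3% lower. Of 22 names on the list 21 identifiers were tested, with 18 lower, 1 higher and a median of -1.36, which is a ratio of 2.57-fold in favour of Input. Pvalb, the calcium-binding protein of fast-spiking cells, was at 14.4, 15.1, 8.99, 13.4 and 22.3 CPM in IP, against 157, 134, 133, 102 and 113 in Input. The fractions were far apart in every animal, with wtBT14 highest in IP (log2 change -3.11, adjusted p = 1.08e-08). The peptide genes Npy (44.9 ± 9 against 272 ± 29.7 CPM, log2 -2.61), Vip (-2.22) and Sst (-1.82) and the homeobox gene Lhx6 (-1.97) were lower as well. Gad1 and Gad2, which encode the enzymes that make GABA, had smaller changes of -0.33 and -0.45. Nos1, nitric oxide synthase of neurons, was the 1 higher gene of this list, at 44.7 ± 5.31 CPM in IP and 17.8 ± 2.94 in Input (log2 1.33, higher in all 5 animals). Summed over the list, levels were 785.6 to 1087 CPM in IP and 2024 to 2177 in Input.

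Genes of striatal projection neurons, which share dopamine receptors and DARPP-32 with some cortical cells, were lower in 11 of 13 cases and higher in 0 (median -1.02). By comparison, 27.3% of all genes were lower and 28.9% higher. Ppp1r1b, the gene of DARPP-32, was at 233 ± 21.4 against 846 ± 82.6 CPM (log2 -1.86), and its 5 ratios had an SD of 0.0621 on the log2 scale. Adora2a (-1.76), Rarb (-1.59), Penk (-1.37) and Drd1 (29.8 ± 6.26 against 53 ± 10.1 CPM, log2 -0.83) were lower. Of 14 genes of dopamine signalling 10 were tested, with 2 higher, 6 lower and a median of -0.25. Maoa and Maob, the monoamine oxidases, were the higher ones (0.74 and 0.31), and Gnal (-0.33) was among the lower.

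Genes of oligodendrocytes, astrocytes and microglia were mostly lower in IP, while 4 of 8 tested genes of oligodendrocyte precursors were not called. Among all genes 28.9% were higher and 27.3% lower. Oligodendrocyte genes were lower in 12 of 14 cases and higher in 0, with a median of -1.73. Mbp, myelin basic protein, was at 257, 206, 292, 213 and 226 CPM in IP and at 1312, 1136, 1186, 1291 and 1162 in Input (log2 -2.36, SE 0.09). No IP library came near an Input library, and Mobp (-2.28) and Ermn (-2.45) were lower to a like extent. Mag, another myelin gene, was not called, at 124 ± 37.3 against 126 ± 23.7 CPM. Of 9 genes of oligodendrocyte precursors 8 were tested, with 3 lower, 1 higher and a median of -0.41. Olig1 (-2.07), Olig2 (-1.20) and Sox10 (-1.68), transcription factor genes of the lineage, were the lower ones, and Cspg4 (0.83, higher in 4 of 5 animals) the higher one.

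Of 20 astrocyte genes 16 were lower and 1 higher, set against 27.3% and 28.9% of all genes, with a median of -0.85. Apoe, the apolipoprotein of astrocytes, was at 194 ± 49 against 829 ± 209 CPM (log2 -2.09), S100b had a log2 change of -1.72, Gfap, the intermediate filament gene, -1.32 and Ntsr2 -1.27. Aldh1l1 was higher in all 5 animals, at 97.6 ± 16.1 against 60.3 ± 10.6 CPM (log2 0.70). Of 17 microglial genes 12 were lower and 0 higher (median -1.29). The complement genes C1qb (8.96 ± 1.94 against 42 ± 8.61 CPM, log2 -2.21) and C1qc (-1.93), Tmem119 (-2.16) and Tyrobp (-2.54) were lower, and the receptor genes Csf1r (-0.02) and Cx3cr1 (-0.31) were among the 5 not called.

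Vascular genes were thinly covered, and their counts stand beside 28.9% of all genes higher and 27.3% lower. Of 14 endothelial genes 4 were tested, with 1 lower, Cldn5 (-0.98, lower in 4 of 5 animals), and 0 higher. Their median was -0.15 and changed sign with library size alone (0.09). Of 10 mural cell genes 5 were tested, with 3 lower and 0 higher (median -0.47): the smooth muscle genes Myl9 (-1.99) and Acta2 (-1.68), and Rgs5 (-0.47). Genes of red blood cells were lower throughout, 4 of the 4 tested of 5 listed, with a median of -3.22. Hba-a2, an alpha globin gene, was at 14.2 ± 3.78 against 148 ± 39.1 CPM. Globin genes exist in near-identical copies, so the split between them is uncertain. Of 7 choroid plexus and ependymal genes only Clic6 was tested, and it was lower (-1.37).

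**Figure D3:**
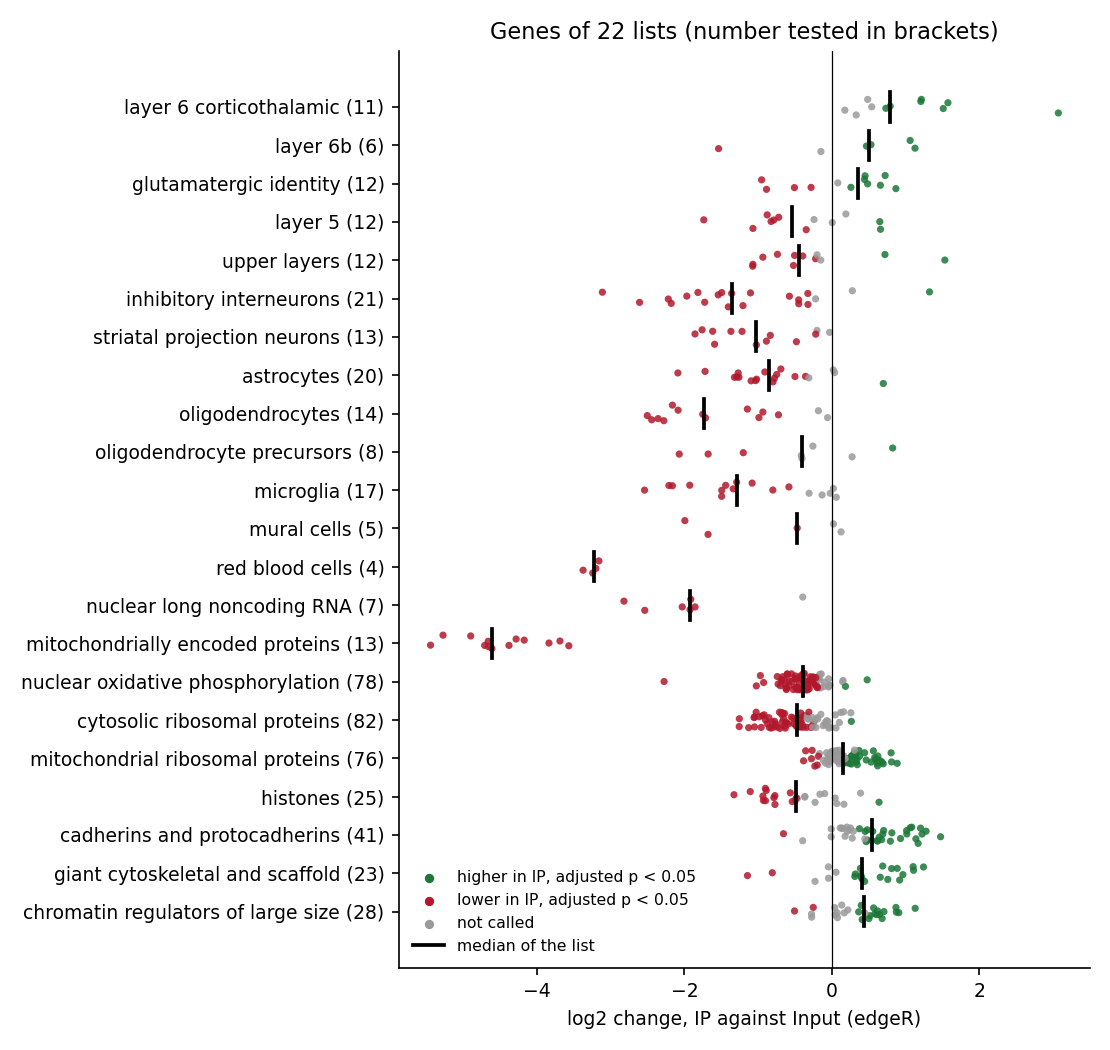
Log2 change of IP against Input (x axis) for the tested genes of 22 lists (y axis, number tested in brackets), each point a gene, coloured by its call, with the median of each list as a black bar. The bars of both layer 6 lists, glutamatergic genes, mitochondrial ribosomal proteins, cadherins, cytoskeletal giants and large chromatin regulators lie to the right of 0, and those of the other 15 lists to the left.

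Mitochondrial RNA and 7SL RNA were among those with the largest changes downwards. Mitochondrially encoded genes took 0.0664% to 0.127% of the counts in IP and 0.928% to 1.86% in Input, with means of 0.0902% ± 0.028 and 1.5% ± 0.357 (SD, n = 5). The share was 16.8 times higher in Input (mean log2 ratio -4.07 ± 0.381, exact sign-flip permutation test, two-sided, p = 0.063, which is the smallest p that 5 pairs allow). All 13 mitochondrially encoded protein genes were lower (median log2 -4.61), as were both mitochondrial ribosomal RNAs. The cytochrome b gene mt-Cytb was at 118, 148, 65.1, 94.8 and 105 CPM in IP, against 3034, 2708, 2917, 2165 and 2824 in Input. Input was far above IP in each animal (log2 -4.71, SE 0.16). The pseudogene Gm10222 was at 5.56 ± 1.85 CPM in IP and 117 ± 21.1 in Input, close to mt-Nd4l at 5.57 ± 1.08 CPM in IP and 118 ± 24.5 in Input, and cannot be separated from mitochondrial RNA without the reads.

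7SL RNA is the scaffold of the signal recognition particle. Rn7s1 was at 2.57, 4.02, 3.64, 4.09 and 5.48 CPM in IP, and at 515, 533, 559, 104 and 244 in Input. IP values were alike, and the Input values of the BT-named animals were below those of the others. The log2 changes of Rn7s1, Rn7s2 and Rn7s6 were -6.57, -6.72 and -6.72, and reads of these near-identical copies cannot be placed with certainty. Of 7 small structural RNAs listed 2, Rn7s1 and Rn7s2, were tested.

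Nuclear long noncoding RNAs were lower in 6 of the 7 tested, with 10 of 14 listed names found in the table, 0 higher and a median of -1.92. Malat1, a nuclear speckle RNA (ENSMUSG00000092341, chromosome 19, 5795690 to 5802672), was at 272, 222, 201, 190.5 and 232 CPM in IP and at 1565, 1359.5, 1805, 1544 and 1608 in Input (log2 -2.82, SE 0.10). The paraspeckle RNA Neat1 (-2.54), Meg3 (-2.03), Miat (-1.92), Snhg11 (-1.91) and Rian (-1.86) were lower too, and Tunar (-0.39) was not called. Of 16 host genes of small nucleolar RNAs 8 were tested, with 1 higher (Snhg12, 0.44) and 1 lower (Gas5, -1.08). The median of these host genes was -0.17 and changed sign with library size alone (0.07). Both counts of noncoding RNAs stand beside 28.9% of all genes higher and 27.3% lower. Counts at the Cdr1 locus (chromosome X, 61184005 to 61185558) were at 25.4 ± 11.2 CPM in IP and 807 ± 138 in Input (log2 -5.02, SE 0.31). A circular RNA is made from the opposite strand there, and without strand both cannot be told apart. By annotation, 1316 processed pseudogenes had a median log2 change of -0.45 (53 higher, 689 lower), 126 long intergenic RNAs -0.16 (20 and 40) and 11993 protein-coding genes 0.08 (3891 and 2908).

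Among nuclear mRNAs, those of the iron storage proteins were lower. These genes were chosen after their values were seen. Ferritin mRNAs carry an iron-responsive element in the 5′ untranslated region, a hairpin with a CAGTGN loop that iron regulatory proteins bind to hold back translation. Fth1, ferritin heavy chain, was at 481, 424, 391, 398.9 and 335 CPM in IP, against 2902, 2852, 2690.4, 2485 and 2487 in Input (log2 -2.73, SE 0.09, adjusted p = 2.98e-14). The 5 animals gave nearly the same ratio. Ftl1, ferritin light chain, was at 28.4 ± 1.78 against 108 ± 5.57 CPM (log2 -1.93), and its annotated copy Ftl1-ps1 at 25 ± 1.23 against 121 ± 12.8 (log2 -2.27), with reads that may be shared. Slc40a1, the iron exporter ferroportin, was at 2.88 ± 1.47 against 7.94 ± 1.57 CPM (log2 -1.49).

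The stretch of 30 bases around this hairpin is shown for the 3 iron genes, since it is the feature they share. It was found in the GENCODE M21 transcripts by the loop CAGTGN, a C 6 bases before the loop, and 5 of 5 paired bases around it (G with T allowed). The loop is in capitals.
Fth1 (chr19:9982732-9982761, plus strand): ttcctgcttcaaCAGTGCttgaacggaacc
Ftl1 (chr7:45459778-45459807, minus strand): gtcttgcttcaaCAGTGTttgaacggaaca
Slc40a1 (chr1:45925464-45925493, minus strand): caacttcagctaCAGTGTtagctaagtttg
The same pattern was found in the 5′ untranslated regions of 15 of 11573 tested genes (0.13%). Of these, 4 are the ferritin genes, the annotated copy and ferroportin, picked for their low values. Of the other 11, 3 were lower in IP, 3 higher and 5 not called, with a median of -0.12, and 3 of 11 is close to the 27.3% of all genes that were lower. The lower ones were Ppp1r1b (-1.86), Vti1b (-0.92) and Ppia (-0.86), and the higher ones Ecd (0.67), Egfl7 (0.54) and Eif2s1 (0.37). With 4 of 5 paired bases 80 genes matched, and of the 78 described here 24 were higher and 18 lower (median 0.14). The letters show a match only. Epas1 (-0.73, lower in 4 of 5 animals), another gene known for such an element, had no match under either setting. Tfrc, the transferrin receptor, whose elements lie in its 3′ untranslated region, was not called (0.14), and Aco1, iron regulatory protein itself, was higher (0.61).

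Enrichment followed the length of the encoded protein. Over 5 classes of protein length the median log2 change was -0.21 for 1517 genes under 200 residues, -0.04 for 3345 genes of 200 to under 400, 0.11 for 4496 genes of 400 to under 800, 0.34 for 2082 genes of 800 to under 1600 and 0.61 for 546 genes of 1600 or more. The share of genes higher in IP went from 15.6% in the shortest class to 66.3% in the longest, and that of lower genes from 46.8% to 6.41%. The longest class exceeded the shortest in every animal, by 1.03, 0.66, 1.03, 0.91 and 0.57. Across 11986 genes the log2 change had a Spearman correlation of 0.344 with protein length (0.177 to 0.397 within animals, lowest in wtBT14), of 0.121 with mRNA length, -0.126 with the length of the 3′ untranslated region and -0.149 with mean level. Genes share libraries and are not replicates, so these values are descriptions. By contrast, the number of hydrophobic stretches of 19 residues in the protein showed no order: medians were 0.05 for 7895 genes without any, 0.16 for 2112 with 1, 0.14 for 1061 with 2 or 3, 0.06 for 532 with 4 to 6 and 0.15 for 386 with 7 or more.

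**Figure D4:**
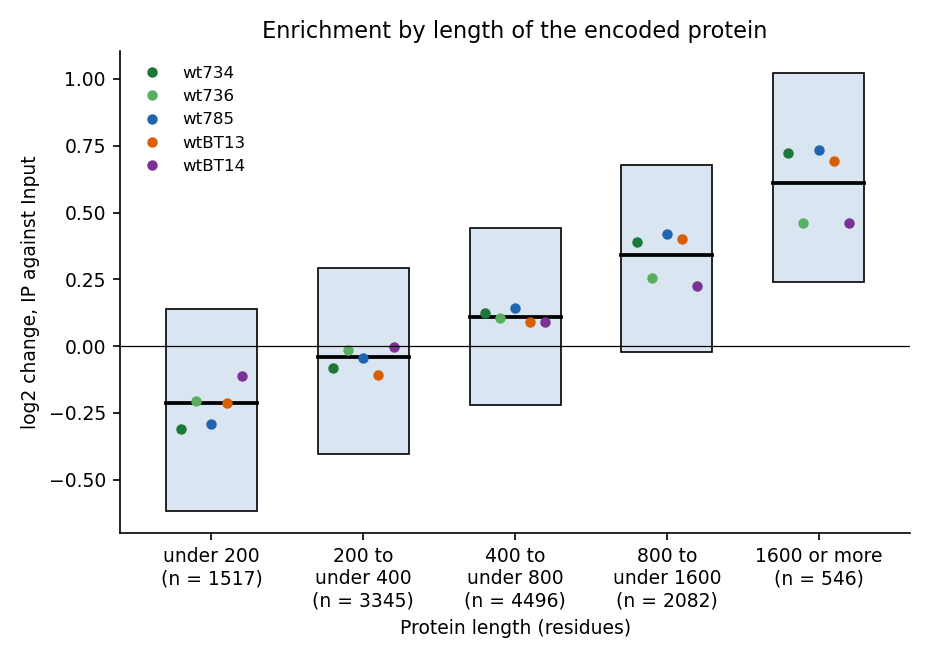
Log2 change of IP against Input (y axis) for genes in 5 classes of protein length (x axis, in residues). Boxes span the quartiles over genes, bars mark the medians of the fitted changes, and dots the median ratio in each of the 5 animals, which goes from -0.31 to -0.11 in the shortest class to 0.46 to 0.73 in the longest.

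Genes of giant cytoskeletal and scaffold proteins, of large chromatin regulators and of cadherins and protocadherins were mostly higher. Among all genes 28.9% were higher and 27.3% lower. In the class of 1600 residues or more 66.3% were higher and 6.41% lower, with a median of 0.61. Plec (chromosome 15, 76170974 to 76232574) encodes plectin, a cytoskeletal linker. In IP it was at 160.0, 132, 177, 167 and 128 CPM, and in Input at 30.1, 25.6, 24.4, 20 and 20.3 (log2 2.66, SE 0.10). The fractions were well apart in each animal. Of 23 giant cytoskeletal and scaffold genes 17 were higher and 2 lower, with a median of 0.41. Ank2, an ankyrin gene, was at 255 ± 53.1 against 129.7 ± 20.6 CPM, Huwe1 and Herc1, ubiquitin ligase genes, had log2 changes of 0.76 and 0.89, and Syne2 of 1.10. Map2 (117 ± 32.4 against 254 ± 37.3 CPM, log2 -1.15) and Map1b (-0.81), microtubule-associated proteins of dendrites and axons, were the lower ones. Of 28 large chromatin regulators tested (29 listed) 16 were higher and 2 lower, with a median of 0.43: Smarca4 (0.88), Bptf (0.91), Setd2 (1.13) and Med13l (0.71) were among the higher and Kmt2e (-0.25) among the lower. Of 41 cadherins and protocadherins tested (57 listed), which are adhesion proteins, 26 were higher and 1 lower, with a median of 0.54. Cdh13 was at 193 ± 26.5 against 119.8 ± 23.6 CPM, Pcdhb9 had a log2 change of 1.28, Pcdh7 of 0.79 and Cdh9 of 1.02, while Cdh7 was lower (-0.66).

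Several of the other genes with large changes upwards also encode long proteins. Eprs (chromosome 1, 185363044 to 185428360), the bifunctional glutamyl-prolyl-tRNA synthetase, was at 439, 366, 396, 468 and 461 CPM in IP and at 78.3, 65.3, 73, 99.8 and 86.2 in Input (log2 2.41, SE 0.08). The 5 log2 ratios had an SD of 0.105. Prpf8, a core protein of the spliceosome, was at 224 ± 27.4 against 44.3 ± 4.01 CPM (log2 2.33). The calcium release channel gene Ryr2 (2.27), the teneurin gene Tenm2 (2.20), the ubiquitin ligase gene Ubr3 (2.18), Reln, the secreted matrix protein reelin (82.9 ± 14.4 against 18.2 ± 1.99, log2 2.17), and Polr2a, the large subunit of RNA polymerase II (2.16), were in the same range. Shorter ones were Cbln1, a synaptic organiser (2.54), the aldehyde dehydrogenase gene Aldh3a1 (2.66), the claudin gene Cldn1 (2.34), Popdc3 (2.28), Tbata (2.27), Nxph3 (2.20), the calcium uniporter subunit gene Mcub (2.19) and the transcription factor gene Lef1 (2.17). Trbj2-3, annotated as a joining segment of the T cell receptor, was at 8.85 ± 3.1 against 1.26 ± 0.945 CPM (6.96-fold). These genes were higher in all 5 animals by the rule that chose them.

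The mRNAs of the translation apparatus differed by part, and 28.9% of all genes were higher and 27.3% lower. Of 82 tested genes of cytosolic ribosomal proteins (84 listed) 57 were lower and 1 higher, with a median of -0.47. Rpl4 was at 272 ± 35.7 against 649.6 ± 68.5 CPM (log2 -1.26), Rpl13a had a log2 change of -1.13 and Fau of -0.92, and Rpl22 was the higher one (0.26). These genes have many processed copies, so reads may be split. The median was -0.66 in number-only and -0.22 in BT-named animals. Of 76 tested genes of mitochondrial ribosomal proteins (77 listed), which are made in the cytosol, 32 were higher and 7 lower, with a median of 0.15: Mrps27 (0.81), Mrpl38 (0.62), Mrpl21 (0.80) and Mrpl39 (0.70) were higher, Mrps33 (-0.38) and Mrpl50 (-0.36) lower. Of 62 tested initiation and elongation factors (66 listed) 23 were higher and 21 lower (median 0.05). Eef1a1, which brings aminoacyl-tRNA to the ribosome, was at 216 ± 39.5 against 585 ± 71.6 CPM (log2 -1.45) and Eif5a (-0.93) and Eif4h (-0.82) were lower, while Eif3a, the largest subunit of its complex, was higher (0.88).

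Energy metabolism and housekeeping lists were mostly lower or mixed, set against 28.9% of all genes that were higher and 27.3% that were lower. Of 78 tested nuclear genes of oxidative phosphorylation (83 listed) 63 were lower and 2 higher, with a median of -0.39. Cox7a2l (119 ± 1.92 against 242 ± 21.7 CPM, log2 -1.03), Atp5j (-0.97), Cox8a (-0.93) and Cox6a1 (-0.73) were lower, and Ndufs1 (0.48) and Ndufs4 (0.19) were higher. With library size alone 36 were lower and 7 higher. Of 16 glycolysis genes 11 were lower and 3 higher (median -0.50): Aldoc (-1.02), Ldhb (-0.73), Tpi1 (-0.63) and Gapdh (-0.68) were lower, and Pfkp and Pfkm, which encode phosphofructokinase, were higher (both 0.45). Of 25 tested histone genes (67 listed) 14 were lower and 1 higher (median -0.49), with H3f3b at 216 ± 12.6 against 543 ± 36 CPM, H2afz at -0.90, H1f0 and Hist1h2bc both at -0.77, and H2afy higher (0.64). Of 44 spliceosome genes 14 were higher and 6 lower (median 0.17), among them Sf3b3 (1.15) and Prpf6 (0.76), higher, and Sf3b2 (-0.60) and Sf3a1 (-0.40), lower. Of 46 tested proteasome genes (49 listed) 8 were higher, such as the assembly factors Psmg1 (0.85) and Psmg2 (0.81), and 12 lower, such as Psmc5 (-0.83) and Psmc1 (-0.38). The proteasome median was -0.03 and 0.21 with library size alone.

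Synaptic genes did not move as a block, and their counts stand beside 28.9% of all genes higher and 27.3% lower. Of 39 genes of synaptic vesicle release 11 were higher and 16 lower (median -0.05, and 0.19 with library size alone). The vesicle SNARE genes Vamp1 (-1.48) and Vamp2 (951 ± 106 against 1936 ± 156 CPM, log2 -1.03) were lower, and Unc13a (1.54) and Stxbp5 (1.14), large regulators of release, were higher. Of 18 tested postsynaptic scaffold genes (19 listed) 8 were higher and 1 lower (median 0.19): Iqsec2 (1.61), Lrrc7 (1.78), Dlg3 (1.14) and Dlgap4 (0.52) were higher and Shank1 (-0.27, higher in 2 of 5 animals) lower. Shank2, its relative, was at 169.6, 113, 207, 229 and 276 CPM in IP, against 59.7, 50.7, 49.5, 51.5 and 48.5 in Input (log2 1.88). Input values were alike, and the IP values spread widely between wt736 and wtBT14. Of 14 mRNAs known from dendrites 2 were higher (Shank2, and Shank3 at 1.22) and 4 lower (median 0.0042, and -0.0086 with RLE scaling).

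Receptor and channel lists moved by differing amounts, to be read against the 28.9% of all genes that were higher and the 27.3% that were lower. Of 17 tested ionotropic glutamate receptor genes (18 listed) 7 were higher and 0 lower, with a median of 0.08: the NMDA receptor genes Grin1 (103 ± 12.8 against 60.0 ± 5.6 CPM, log2 0.77) and Grin2b (0.45), and Grik3 (0.92) and Grid1 (0.85) were among them. Of 14 tested GABA receptor genes (18 listed) 4 were higher and 3 lower (median -0.0029, and 0.24 with library size alone): Gabbr2 (0.42) and Gabra2 (0.64) were among the higher, and Gabra4 (-0.52) among the lower. Of 29 tested voltage-gated potassium channel genes (38 listed) 10 were higher and 5 lower (median 0.13). Kcnc4 (0.43) and Kcnh3 (0.57) were higher, and Kcnc2 (-0.95) and Kcna2 (-0.91, lower in 4 of 5 animals) lower. Of 29 tested sodium and calcium channel genes (39 listed) 14 were higher and 10 lower (median 0.24). The pore-forming calcium channel genes Cacna1b (0.97) and Cacna1e (0.98) and the auxiliary Cacna2d3 (0.71) were higher, and the auxiliary Cacnb3 (-0.59) lower. Cacng3 (-0.47), which is listed by its name and encodes an auxiliary protein of AMPA receptors, was lower too. Of 35 tested kinesins and dyneins (58 listed) 18 were higher and 6 lower (median 0.25). Kif21a (0.65) and Kif3a (0.58) were higher, as was Kif1bp (0.86), which is listed by its name and encodes a kinesin-binding protein. The axonal motor gene Kif5a (457 ± 79.7 against 1143 ± 190.3 CPM, log2 -1.32) and Dynlt3 (-0.75) were lower.

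Secreted and inducible genes gave mixed counts, to be read against 28.9% of all genes higher and 27.3% lower. Of 21 neuropeptide and related genes 12 were lower and 2 higher, with a median of -0.44. Besides Npy, Vip and Penk, which other lists share, Cck was lower (241 ± 43.9 against 519 ± 78.5 CPM, log2 -1.11), and the prohormone convertase genes Pcsk1 (0.92) and Pcsk2 (0.22) were higher. Of 27 genes of folding and translocation in the endoplasmic reticulum 10 were higher, such as Calr (0.56), Ostc (0.58) and Rpn1 (0.43), and 7 lower, such as Dnajb9 (-0.75) and P4hb (-0.52), with a median of 0.02. Of 15 tested genes of the Atf4 and stress response (17 listed) 2 were higher (Shmt2, 0.60, and Asns, 0.40) and 7 lower, among them Phgdh (-0.94), Psat1 (-0.59) and Atf4 itself (-0.49). Their median was -0.09, and 0.16 with library size alone. Of 19 tested immediate early genes (20 listed) 13 were not called, 4 were higher, among them Ier5 (0.73) and Nr4a3 (1.06), and 2 lower, Egr1 (383 ± 73.1 against 626 ± 212 CPM, log2 -0.67) and Egr3 (-0.46).

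Of 323 tested genes named Zfp (385 listed), zinc finger proteins, 48 were higher and 57 lower, set against 28.9% and 27.3% of all genes, with a median of -0.02 that was 0.22 with library size alone. Zfp318 (1.16) and Zfp638 (0.84) were higher, and Zfp180 (-1.16), Zfp706 (-0.99), Zfp931 (-0.98) and Zfp263 (-1.18) lower. Of 70 olfactory receptor genes listed only Olfr287 was tested, and it was lower (-1.96, at 1.67 ± 0.769 against 6.66 ± 2.89 CPM).

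The 5 most abundant genes were the same in both fractions and lower in IP. Snap25, a membrane SNARE, was at 2641 ± 523 against 5737 ± 289 CPM (log2 -1.14), Actb, beta actin, at -0.93, and Ndrg4 at -0.87.

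Some enriched genes varied widely between animals. Slc34a2, a phosphate transporter gene, was at 1192, 563, 773, 327 and 36.4 CPM in IP, and at 131, 111, 36.9, 12.7 and 48.8 in Input. It was the most variable called gene upwards among those with a mean of at least 20 CPM, and wtBT14 had a ratio below 1 (log2 change 2.88, SE 0.85, adjusted p = 0.0452). Gm42418 (1.24), Ogdhl (1.52), Exph5 (1.69) and Grm2, a metabotropic glutamate receptor gene (0.69), followed. Gm42418 was at 706 ± 438 against 304 ± 178 CPM. Downwards the most variable were the 3 genes of 7SL RNA, mt-Atp8 (-5.45) and mt-Nd3 (-5.28).

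Enrichment differed between the forms of animal name in a small set of genes. Of 14827 genes tested for a difference 116 (0.782%) were called, 38 with a higher ratio in BT-named animals and 78 with a lower one, and 1419 had an unadjusted p below 0.05. The count was 9 without wt785, 52 without wt736 and 295 without wtBT13. Dbpht2 had the smallest p: its log2 ratios were -0.02, -0.14 and -0.18 in the number-only animals and -1.14 and -1.47 in the BT-named animals (difference -1.20, SE 0.14, edgeR adjusted p = 0.000739). The groups of values did not overlap. Braf, a kinase of growth factor signalling, Nfib and Thrb, transcription factor genes, and Ube2h, a ubiquitin-conjugating enzyme gene, were lower in the same way. Mapk4, a kinase gene, ran the other way, with -0.92, -1.16 and -1.50 against -0.05 and 0.37, as did Rictor, a subunit of mTORC2 (0.56, 0.03 and 0.41 against 1.66 and 2.13), Ptpn4, Clasp2 and Rn7s1. Of the 116 genes 51 had mean ratios of opposite sign between the forms. The form of name and the animals themselves cannot be told apart.

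**Figure D5:**
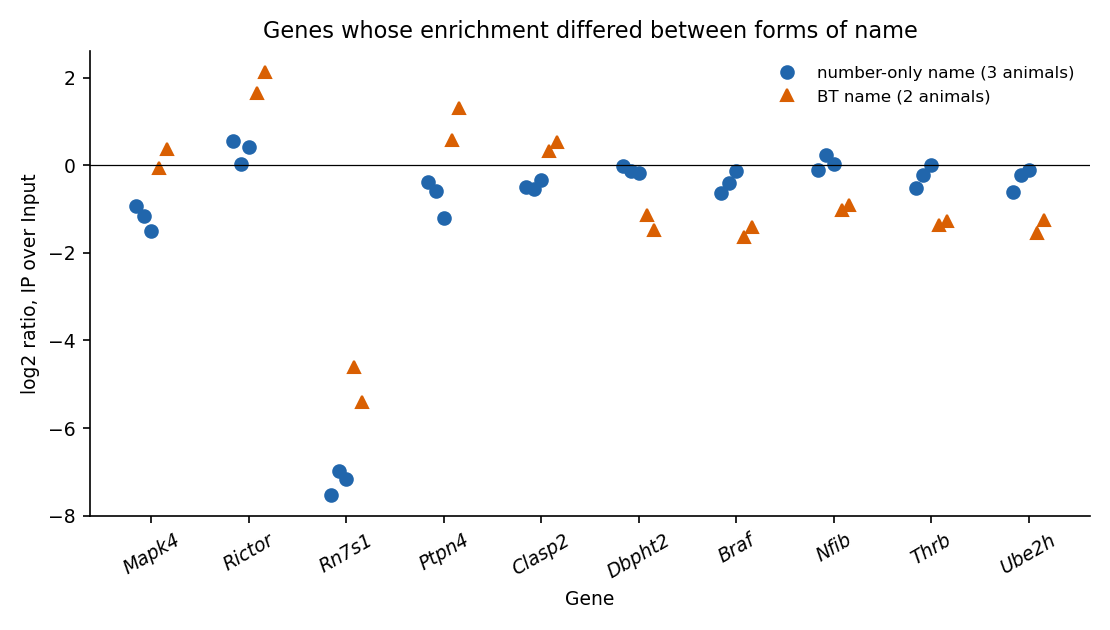
Log2 ratio of IP over Input (y axis) in each of 5 wild-type animals for the 10 genes named for a difference between forms of name (x axis), circles for number-only names and triangles for BT names. The triangles lie above the circles for Mapk4, Rictor, Rn7s1, Ptpn4 and Clasp2 and below them for Dbpht2, Braf, Nfib, Thrb and Ube2h.

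The 3 heterozygous animals with both fractions, of the same age, strain and tissue, served for comparison, and the rule that chose the genes did not use them. In a fit of the heterozygotes alone 3230 of 14158 genes tested were higher in IP and 3109 lower. Of 4003 genes higher in wild types and tested in heterozygotes, 3951 had the same sign there and 2792 were called so. Of 3767 lower ones 3715 had the same sign, 2761 were called so and 1 was called the opposite way. Of 800 genes higher beyond 1.5-fold in wild types and tested in heterozygotes, 800 had a positive change there and 762 were called, and of 999 lower ones 999 had a negative change and 932 were called. A test of the difference in enrichment between genotypes called 0 of 14797 genes (0%) with edgeR, and 454 genes (3.07%) were under 0.05 before adjustment. The other tools, limma-voom and DESeq2, also called 0. Ntsr1 had a log2 change of 3.55 in heterozygotes, Plec 2.74, Eprs 2.43 and Foxp2 0.73, and all 4 were called there. In the IP of het729 mt-Cytb was at 610 CPM, against 58.1 and 84.9 in het786 and hetBT13. The change of mt-Cytb missed the threshold in heterozygotes (log2 -4.27, SE 1.27, edgeR adjusted p = 0.122). Cdr1 (251 against 6.19 and 14.1 CPM), Rn7s1 (56.3 against 2.44 and 2.07) and Malat1 (464 against 136 and 226) were higher in the IP of het729 too. Ntsr1 was not (34.9 against 42.6 and 37.8). Without het729 the test between genotypes also called 0 of 15055 genes, with 717 under 0.05 before adjustment.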

How the data were processed

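The authors deposited a table of raw read counts per gene, which per the submitters' processing notes came from HTSeq and the mm10 build, and whose aligner, annotation and strand setting are not given in the sources used here. Of 25317 identifiers 24873 matched a name in GENCODE M21. The 10 wild-type libraries were fitted alone with edgeR 4.0.16 in R 4.3.3 (quasi-likelihood, robust, TMM scaling, animal as a block), with 13913 genes left by a count minimum of 10 (filterByExpr). P-values were adjusted by Benjamini-Hochberg at 0.05, and changes beyond 1.5-fold were tested with glmTreat. CPM are TMM-scaled means ± SD. The pairing comes from the animal named in both columns. Deviations of IP and Input of the same animal correlated at 0.222, 0.185, 0.177 and 0.237, and at 0.068 in wtBT14, whose highest correlation with another animal was 0.201, above its own pair. Separate fits tested whether enrichment differed by form of name, or by genotype over 16 libraries. Alternatives were library size alone, RLE, no block, other count minimums, DESeq2 1.42.0, limma 3.58.1 with voom, leaving out each animal, and each form of name alone. Lists are described by counts and medians.

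Genes named are those of the Foxp family with Drd1, Ntsr1 and Tle4; the 20 largest changes per direction with a mean of at least 5 CPM and 1 direction in all 5 animals; up to 4 called members of smallest p per list and up to 2 called against it; the 5 most abundant; the 5 of smallest p per direction for the form of name; the 5 most variable per direction with at least 20 CPM; and members needed to account for a list. The iron genes fall outside this rule, and some genes it selects are not reported here. The members and lists were chosen with earlier results of these data known. The scripts were tested on simulated data.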

Additional observations from a re-analysis of the deposited data

Results flagged for a closer look

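Enrichment differed between BT-named and number-only wild-type animals in 116 genes by a test of the difference itself. They are 0.782% of 14827 genes, and the count was 9 without wt785. Of the genes named above, the log2 ratio of IP over Input was higher in BT-named animals, with the difference in brackets, for Cdr1 (1.18), Clasp2 (0.89), Grm2 (1.26), Mapk4 (1.36), Ogdhl (1.33), Ptpn4 (1.67), Rictor (1.57) and Rn7s1 (2.11). It was lower for Braf (-1.13), Dbpht2 (-1.20), Map1b (-0.80), Moxd1 (-1.27), Nfib (-1.01), Thrb (-1.08) and Ube2h (-1.09). What the form of name stands for is not given, and the cause was not tested.

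Of 279 values examined for an animal far from the other 4, 13 were so marked by the gap to its nearest neighbour, where chance marks about 1 group in 20. All 13 are log2 ratios of single genes. In wt734 this was Emx1 (0.057). In wt736 these were Eif3a (0.41) and Nr4a3 (0.34). In wt785 this was mt-Atp8 (-7.40). In wtBT13 these were Calr (0.91), Epas1 (0.048), Eprs (2.23), Grin1 (0.89), Mobp (-2.63) and Rpl13a (-0.68). In wtBT14 these were Mcub (3.38), Neurod1 (-0.12) and Vamp2 (-1.51).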

How the results depend on the processing

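Pairing by animal was the design used. Without the animal block 7247 genes were called, 1603 beyond 1.5-fold, and 67 differed by form of name. Leaving out each animal gave 6961 to 7534 genes called, 1514 to 1742 beyond 1.5-fold, and 9 (without wt785) to 295 (without wtBT13) differing by form of name, with 52 without wt736. DESeq2 called 847 genes beyond 1.5-fold. The BT-named animals alone, with 2 animals, gave 4949 and 1174. No filter on low counts gave 229 for the form of name, and 11 for genotype, where the filtered fits gave 0. Library size alone gave 6317 higher and 2296 lower, or 73.3% higher against 51.4%. The mitochondrial share (-4.16 to -3.93 leaving out 1 animal) kept its direction under all alternatives run. The protein length difference was 0.82 with RLE scaling and with library size alone, and 0.85 with a mean CPM of at least 5. Scaling moves all genes of a library alike, so those scalings could hardly change a difference between length classes. In single animals it was 0.57 to 1.03.

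Of 3639 comparisons for 244 named genes 3482 kept direction and call, 103 lost and 39 gained the call, and 15 reversed. With the BT-named animals alone these were Foxp2 (-0.020), Shank1 (0.10), Mapk4 (0.16), Ptpn4 (0.95) and Clasp2 (0.43), and with number-only animals Nfib (0.056). Ptpn4 also reversed without the block (0.14), with library size alone (0.22), no filter (0.023) and limma-voom (0.062), and ran from -0.37 to 0.25 leaving out 1 animal. Clasp2 reversed with library size alone (0.14) and ran from -0.26 to 0.012. The cause was not tested. Depth limits low genes: most endothelial and choroid plexus genes were too low to test.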
